A study of Mus musculus with 38 samples.

Results

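The genes described here encode enzymes and end-binding proteins that act on immunoglobulin switch regions after the deaminase AID has made uracil there. Members were the symbols UNG, APEX1, APEX2, MSH6, EXO1, RNF8, TRP53BP1 and XRCC5, as the deposited RNA tables spell them, and they are written in mouse style below. Of the 8 listed genes, 7 had a value in all 14 RNA libraries and Rnf8 is not analysed here. They stand among 11441 genes in the 8 libraries with GC-normalized values, 20650 genes in the 4 inhibitor libraries and 20605 genes in the 2 plasma cell libraries.

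The study followed mouse B lymphocytes (C57BL/6) as they became antibody-secreting cells, and each of its 7 RNA groups held 2 libraries of polyadenylated RNA. Blimp1(GFP/+) Cd23(Cre/+) cells were stimulated with LPS for 4 days and sorted into activated B cells, which lacked CD138 and GFP, pre-plasmablasts, which had gained only GFP, and plasmablasts, which had both. Blimp1-deficient pre-plasmablasts were Blimp1(GFP/fl) Cd23(Cre/+) cells cultured the same way and sorted as CD138-GFP+CD22hi, so genotype and gate differed together from the control pre-plasmablasts. Further pre-plasmablasts, Blimp1(GFP/+) without the Cre allele in their label, received LPS for 4 days with the EZH2 inhibitor GSK343 or with its solvent DMSO. Plasma cells were taken ex vivo from Blimp1(GFP/+) mice as CD28+CD138+GFP+Lin- cells. All 7 groups therefore carried 1 Blimp1 allele with GFP, and the Cd23 promoter drives Cre in maturing B cells. No label says that replicate libraries came from separate mice or cultures, so the p-values measure the spread between these libraries, which may be technical.

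Class switching replaces the constant region of an antibody by cutting and rejoining DNA at switch regions. Uracil there is removed by Ung and the bare site is nicked by Apex1 or Apex2, or the U:G mismatch is bound by a complex that holds Msh6 and the strand is resected by Exo1. Rnf8 and Trp53bp1 act on the chromatin around the resulting breaks, and the Ku heterodimer of Xrcc5 and Xrcc6 holds the ends for joining. Switching is known to take place in activated B cells, while plasma cells no longer divide.

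The values are RPKM, reads scaled to transcript length and library size, so that levels may be set against each other between genes. Sequencing depth is unknown from these values. Between 9744 and 10077 genes reached 1 RPKM in the GC-normalized libraries, 9188 to 9519 in the inhibitor libraries and 9869 to 9885 in the plasma cell libraries. Prdm1, which encodes Blimp1, stood at 429 and 327 RPKM in control pre-plasmablasts, 199 and 171 RPKM in Blimp1-deficient ones, 363 and 289 RPKM in plasmablasts and 7.45 and 10.7 RPKM in activated B cells. The labels do not say which exons the deletion removes, so whole-gene values do not test it. Cd22, the antigen of the Blimp1-deficient gate, stood at 345 and 309 RPKM there against 28.5 and 38.3 RPKM in control pre-plasmablasts. Plasma cells had 780 and 753 RPKM of Sdc1, which encodes CD138, and plasmablasts had 32.7 and 30.5 RPKM.

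**Figure D1:**
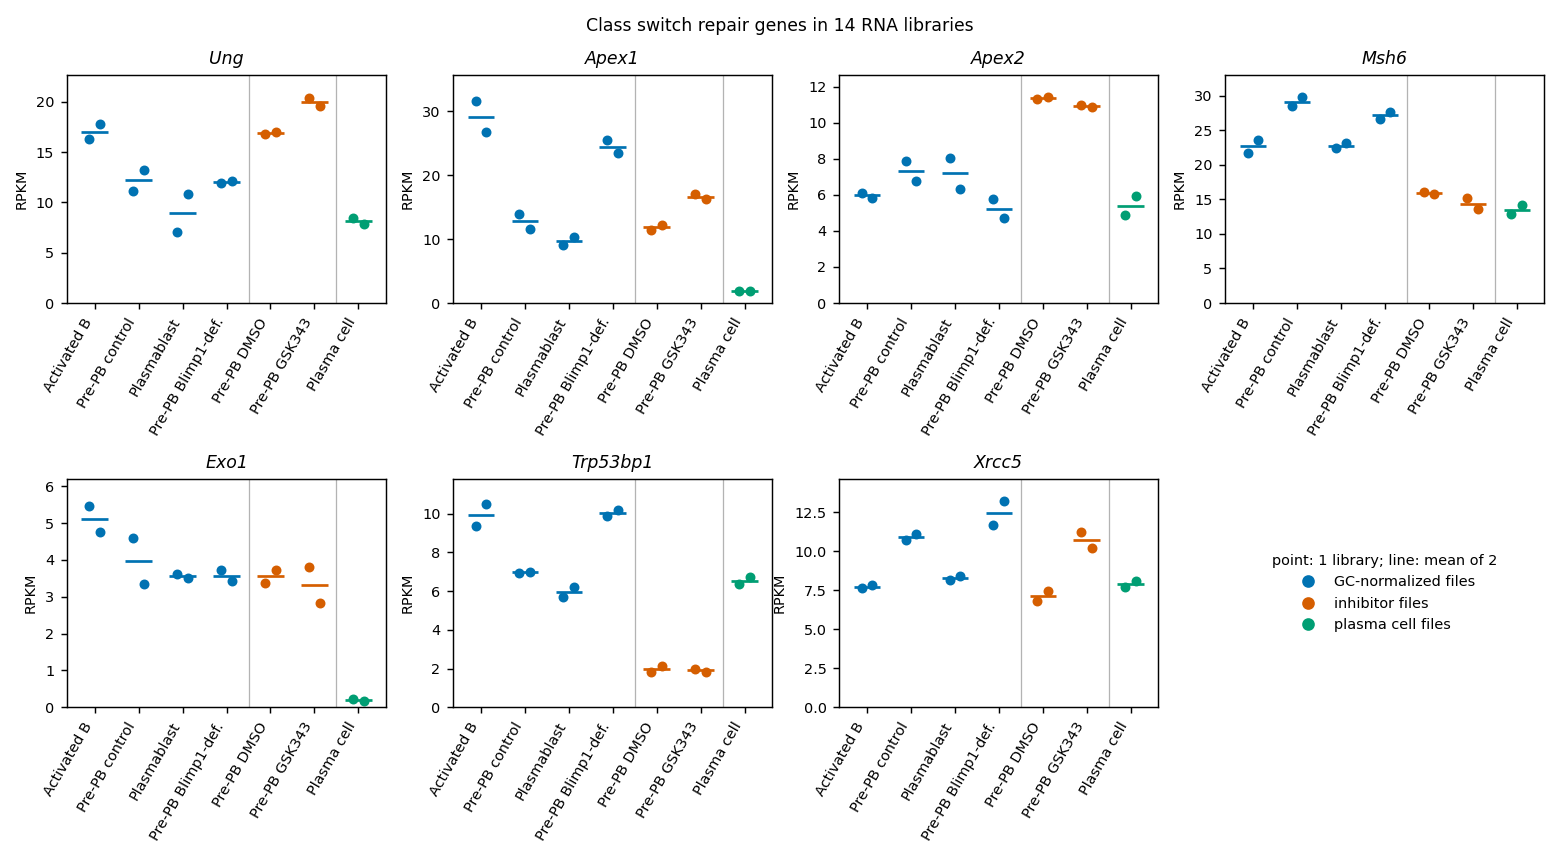
RPKM (vertical axis, from 0) of the 7 genes in 14 libraries, with 1 point per library, a line at the mean of 2, and colours and vertical lines that separate the 3 kinds of deposited file. Apex1 was at 31.6 and 26.7 RPKM in activated B cells and at 1.82 and 1.84 RPKM in plasma cells, and Trp53bp1 lay near 2 RPKM in the inhibitor libraries only.

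The first comparison asks which of these genes differ once activated B cells have switched on the Blimp1 reporter. In pre-plasmablasts, 2 of the 7 genes rose (Msh6 and Xrcc5) and 2 fell (Apex1 and Trp53bp1) against activated B cells at a limma adjusted p below 0.05. Of all 10473 genes tested, 20.2% passed as higher and 28.0% as lower, 48.2% in all, so 4 of 7 is close to the background. With the library number series in the sample titles as a replicate block, all 7 genes passed, 3 higher (Msh6, Xrcc5 and Apex2) and 4 lower (Apex1, Trp53bp1, Ung and Exo1), where 27.9% of all genes were higher and 41.7% lower, 69.6% in all. The median log2 difference was -0.31 over the 7 genes and -0.12 over all genes. Scaling the libraries by median of ratios moved the median of all genes to -0.02 and left the same 2 genes higher and 2 lower.

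Plasmablasts against activated B cells compares the 2 ends of this culture. There 4 of 7 genes fell (Apex1, Ung, Trp53bp1 and Exo1) and 0 rose, where 33.9% of all genes were lower and 21.3% higher, 55.1% in all. Under the replicate block, Apex2 also passed as higher (adjusted p = 0.049), where 28.0% of all genes were higher and 47.4% lower, 75.4% in all. Under the other scaling 3 fell, because Exo1 no longer passed (adjusted p = 0.193). That scaling moved the median of all genes from -0.18 to -0.01 and the share of higher genes among those called from 38.6% to 51.4%.

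Plasmablasts against pre-plasmablasts compares the 2 GFP+ populations of this culture. None of the 7 genes passed in limma, where 2.34% of all genes did (0.716% higher and 1.62% lower), and 3 of 7 had an unadjusted p below 0.05, where 16.3% of all genes had. Under the replicate block 4 of 7 were lower (Msh6 at adjusted p = 0.00652, Xrcc5 at 0.0151, Ung at 0.0444 and Apex1 at 0.0457), where 13.3% of all genes were lower and 7.00% higher, 20.3% in all. All 7 log2 differences were below 0, from -0.42 (Ung) to -0.02 (Apex2), against a median of -0.04 over all genes. Apex2 turned to 0.05 under the other scaling, which moved the share of higher genes among those called from 30.6% to 42.4%.

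Blimp1-deficient against control pre-plasmablasts compares CD138-GFP+ cells whose genotype and CD22 gate differ together. Apex1 and Trp53bp1 rose, 2 of 7 genes, and 0 fell, where 24.4% of all genes were higher and 16.1% lower, 40.4% in all. Apex2 was lower under the replicate block (adjusted p = 0.00419), where 24.9% of all genes were lower and 40.4% higher, 65.2% in all, and under the other scaling (adjusted p = 0.0358). The other scaling moved the median of all genes from 0.12 to 0.00 and the share of higher genes among those called from 60.3% to 47.5%, and Apex1 and Trp53bp1 still passed as higher. Blimp1-deficient pre-plasmablasts against activated B cells showed 1 of 7 genes higher (Xrcc5) and 0 lower, where 10.4% of all genes were higher and 7.60% lower, 18.0% in all. The block gave 2 higher (Xrcc5 and Msh6) and 2 lower (Ung and Exo1), where 22.1% were higher and 20.6% lower, 42.7% in all. Control pre-plasmablasts enter 3 of the 6 comparisons and activated B cells enter 3, so these results share libraries.

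GSK343 blocks EZH2, the enzyme that places a repressive methyl mark on histone H3. Against DMSO, Apex1 and Xrcc5 rose, 2 of 7 genes, and 0 fell, where 12.7% of 9479 genes were higher and 5.86% lower, 18.6% in all. With no filter on low values neither gene passed. With 7 genes in all, none of the counts in the 6 comparisons is read as particular to them. The other scaling moved the share of higher genes among those called from 68.5% to 55.1%, with Apex1 and Xrcc5 still higher.

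**Figure D2:**
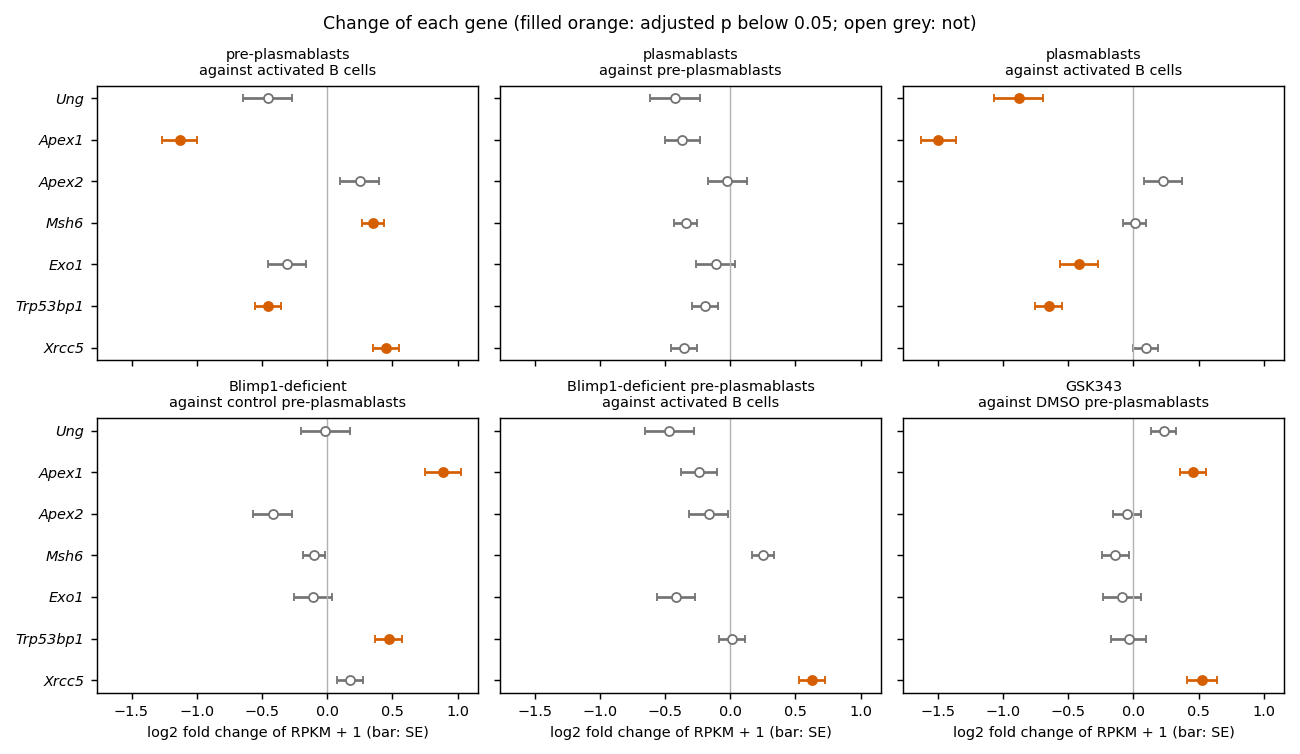
Log2 fold change of RPKM + 1 (horizontal axis) with its standard error for the 7 genes in 6 comparisons, filled orange where the limma adjusted p was below 0.05 and open grey where it was not. Apex1 lies at -1.13 and -1.50 in the comparisons of pre-plasmablasts and plasmablasts with activated B cells and at 0.89 in the Blimp1-deficient comparison.

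Ung encodes the glycosylase that removes uracil from DNA. On the reference assembly Ung overlaps Alkbh2, Msh6 overlaps Fbxo11, Exo1 overlaps Gm23805, Trp53bp1 overlaps Map1a and Tubgcp4, and Apex2 overlaps 5 genes, so values of these 5 are less certain than those of Apex1 and Xrcc5. The Ung level was 16.3 and 17.7 RPKM in activated B cells, 11.1 and 13.2 in control pre-plasmablasts, 7.09 and 10.9 in plasmablasts, and 11.9 and 12.1 in Blimp1-deficient pre-plasmablasts. Both activated B cell libraries were above the other 6, plasmablasts were lowest, and Blimp1-deficient cells lay inside the range of control pre-plasmablasts. In plasmablasts Ung fell 1.84-fold on the RPKM + 1 scale against activated B cells (log2 -0.88 ± 0.19 SE, adjusted p = 0.00736), and it kept that call in all 15 alternatives run. Against activated B cells, the pre-plasmablast difference was -0.45 ± 0.19 (adjusted p = 0.0902, and 0.0102 with the block). That difference also passed without the first plasmablast library (0.0274) or the second (0.0277). In Blimp1-deficient cells the log2 difference from control pre-plasmablasts was -0.01 ± 0.19, and from activated B cells -0.47 (adjusted p = 0.147, and 0.0159 with the block).

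Ung stood at 16.8 and 17.0 RPKM with DMSO and 20.4 and 19.6 RPKM with GSK343. The GSK343 libraries were both higher, but the difference of 0.23 on the log2 scale did not pass (adjusted p = 0.122). Plasma cells held 8.43 and 7.84 RPKM of Ung, at the 37.5 and 34.9 percentiles of genes at 1 RPKM or more in the same library. In activated B cells the percentiles were 52.3 and 55.1.

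Apex1 encodes the main abasic site endonuclease, which is also known as a redox regulator of transcription factors. It stood at 31.6 and 26.7 RPKM in activated B cells and 25.4 and 23.5 RPKM in Blimp1-deficient pre-plasmablasts. Control pre-plasmablasts had 13.9 and 11.6 RPKM, and plasmablasts had 9.01 and 10.3 RPKM. The 4 groups did not overlap, with the largest step between Blimp1-deficient and control pre-plasmablasts. Apex1 fell 2.19-fold in pre-plasmablasts (log2 -1.13 ± 0.14, adjusted p = 0.000733) and 2.82-fold in plasmablasts (log2 -1.50 ± 0.14, adjusted p = 0.000164) against activated B cells. It was 1.85-fold higher in Blimp1-deficient than in control pre-plasmablasts (log2 0.89 ± 0.14, adjusted p = 0.00275). These 3 calls held in each of the 15 alternatives run.

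Neighbouring groups at either end of that order were closer. Blimp1-deficient pre-plasmablasts and activated B cells differed by -0.24 ± 0.14 (adjusted p = 0.295), and plasmablasts and control pre-plasmablasts by -0.37 ± 0.14 (adjusted p = 0.246, and 0.0457 with the block). In the inhibitor experiment Apex1 was at 11.5 and 12.2 RPKM with DMSO and 17.0 and 16.2 RPKM with GSK343, without overlap. That is a 1.37-fold rise (log2 0.46 ± 0.10, adjusted p = 0.00984). The call was lost without the first GSK343 library (adjusted p = 0.0863), without the second (0.0549) and with no filter on low values (0.092).

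In plasma cells Apex1 was at 1.82 and 1.84 RPKM, at the 7.17 and 7.63 percentiles within those libraries. The percentiles were 71.9 and 67.1 in activated B cells and 38.3 and 42.2 in plasmablasts. The plasma cell values come from separately made files, so this drop in rank was not tested. The 9 myeloid markers summed to 91.9 and 43.0 RPKM there and 4 of 5 erythroid markers with values to 56.04 and 30.6 RPKM, and their part in the Apex1 rank was not tested.

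Markers of other cell types also differed between the cultured groups, but not all in the order of Apex1. Of 9 myeloid markers, Itgam and Tyrobp had values in the GC-normalized files, and their summed level was 28.6 and 22.0 RPKM in activated B cells, 3.88 and 4.28 in control pre-plasmablasts, 0.762 and 1.83 in plasmablasts, and 28.2 and 31.1 in Blimp1-deficient pre-plasmablasts. The 2 of 5 erythroid markers with values, Hbb-b1 and Car2, summed to 18.4 and 12.9 RPKM, 2.50 and 3.27, 1.60 and 1.49, and 14.5 and 13.3 in the same order. For T cells, 3 of 8 markers (Lck, Cd2 and Cd5) summed to 211 and 159 RPKM, 62.7 and 67.6, 67.7 and 72.2, and 300.3 and 254 in that order. That sum was higher in Blimp1-deficient cells than in activated B cells, unlike Apex1. Cd2 made up most of the sum, with 204 and 151 RPKM in activated B cells and 295 and 249 in Blimp1-deficient ones. Lck went the other way and was lower in Blimp1-deficient cells (4.82 and 4.45 RPKM) than in activated B cells (6.91 and 7.63 RPKM), as Apex1 was. Control pre-plasmablasts had 1.74 and 2.75 RPKM of Lck, and plasmablasts had 2.07 and 2.79 RPKM. Cd5 was below 1 RPKM in all 8 libraries, so the sum says little beyond Cd2. None of the markers with values in these 3 lists was at 0 in any of the 8 libraries. The other markers of the 3 lists are not analysed here. The 8 B cell markers summed to 3395 and 3595 RPKM in activated B cells, 2307 and 2469 in control pre-plasmablasts, 1492 and 1607 in plasmablasts, and 4042 and 4277 in Blimp1-deficient pre-plasmablasts. The part of these markers in the Apex1 and Trp53bp1 results was not tested. In bulk RNA fewer cells of a type and less RNA per cell cannot be told apart.

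Apex2 encodes the second abasic site endonuclease, which associates with the replication clamp. Its level was 6.09 and 5.85 RPKM in activated B cells, 7.87 and 6.75 in control pre-plasmablasts, 8.05 and 6.35 in plasmablasts, and 5.75 and 4.71 in Blimp1-deficient pre-plasmablasts. Control pre-plasmablasts and plasmablasts overlapped and both lay above the other 2 groups. With neither the block nor the other scaling, none of the 5 comparisons among these groups passed for Apex2. The closest was Blimp1-deficient against control pre-plasmablasts, at -0.42 ± 0.15 (adjusted p = 0.0653, 0.00419 with the block and 0.0358 under the other scaling). Pre-plasmablasts against activated B cells gave 0.25 ± 0.15 (adjusted p = 0.212, and 0.0365 with the block).

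With DMSO, Apex2 was at 11.3 and 11.4 RPKM, and with GSK343 at 10.96 and 10.89 RPKM, a log2 difference of -0.05 that did not pass. Its values in plasma cells were 4.87 and 5.94 RPKM, inside the range of the cultured groups. The ratio of Apex1 to Apex2 was 5.19 and 4.57 in activated B cells, 4.42 and 4.99 in Blimp1-deficient pre-plasmablasts, 1.77 and 1.72 in control pre-plasmablasts, and 1.12 and 1.63 in plasmablasts. It was 1.02 and 1.07 with DMSO, 1.55 and 1.49 with GSK343, and 0.373 and 0.309 in plasma cells. Apex1 RNA thus exceeded Apex2 RNA in all 12 cultured libraries and was below it in both plasma cell libraries.

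Msh6 encodes a subunit of a complex that recognises base mismatches. It was the most abundant of the 7 genes in control pre-plasmablasts, at 28.5 and 29.7 RPKM, and stood at 26.6 and 27.7 RPKM in Blimp1-deficient ones. Activated B cells (21.7 and 23.5 RPKM) and plasmablasts (22.4 and 23.2 RPKM) were lower and overlapped each other. The rise in pre-plasmablasts over activated B cells was 1.28-fold (log2 0.35 ± 0.09, adjusted p = 0.0146). That call was lost without the first activated B cell library (adjusted p = 0.0963), without the second control pre-plasmablast library (0.0727) and with the fit limited to those 2 groups (0.0548). From pre-plasmablasts to plasmablasts the difference was -0.34 (adjusted p = 0.115, and 0.00652 with the block). Plasmablasts and activated B cells differed by 0.01 on the log2 scale.

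Msh6 was at 16.0 and 15.7 RPKM with DMSO and 15.2 and 13.5 RPKM with GSK343, and the log2 difference of -0.14 did not pass. In plasma cells it was the most abundant of the 7 genes, at 12.9 and 14.1 RPKM and the 49.3 and 52.2 percentiles.

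Exo1 encodes the exonuclease that resects the strand carrying the mismatch, and was the least abundant of the 7 genes in the 8 GC-normalized libraries. Its level was 5.48 and 4.75 RPKM in activated B cells, 4.61 and 3.35 in control pre-plasmablasts, 3.62 and 3.51 in plasmablasts, and 3.73 and 3.43 in Blimp1-deficient pre-plasmablasts. Activated B cells lay above the other 3 groups, which overlapped. In plasmablasts Exo1 fell 1.34-fold (log2 -0.42 ± 0.15, adjusted p = 0.0481). Only 5 of 14 alternatives kept that call, and it was lost without any 1 of the activated B cell, plasmablast or Blimp1-deficient libraries (adjusted p from 0.0684 to 0.207). In pre-plasmablasts the difference was -0.31 ± 0.15 (adjusted p = 0.132, 0.0312 with the block and 0.0423 without the first control pre-plasmablast library). Blimp1-deficient cells differed from activated B cells by -0.42 (adjusted p = 0.104, and 0.0147 with the block).

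The inhibitor libraries had 3.38 and 3.74 RPKM of Exo1 with DMSO and 3.81 and 2.84 RPKM with GSK343, and the groups overlapped. In plasma cells Exo1 was at 0.226 and 0.161 RPKM, the 2 lowest of its 14 values and the only values of the 7 genes below 1 RPKM. Genes of S phase and mitosis were low there too. The 27 such genes with a value in every library summed to 233 and 225 RPKM in plasma cells and to between 766 and 1399 RPKM in the 12 cultured libraries. The share of dividing cells in the Exo1 level was not tested.

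Trp53bp1 encodes a chromatin protein that shields broken ends from resection. Blimp1-deficient pre-plasmablasts (9.90 and 10.2 RPKM) and activated B cells (9.38 and 10.5 RPKM) overlapped and lay above control pre-plasmablasts (6.95 and 6.99 RPKM) and plasmablasts (5.71 and 6.21 RPKM). Against activated B cells it fell 1.37-fold in pre-plasmablasts (log2 -0.46 ± 0.10, adjusted p = 0.00992) and 1.57-fold in plasmablasts (log2 -0.65 ± 0.10, adjusted p = 0.00175). The plasmablast call held in all 15 alternatives, and the pre-plasmablast call was lost without the second activated B cell library (adjusted p = 0.0699). Blimp1-deficient cells were 1.39-fold higher than control pre-plasmablasts (log2 0.47 ± 0.10, adjusted p = 0.0108) and differed from activated B cells by 0.02. The first of these was lost without the first control pre-plasmablast library (0.0514) or the second Blimp1-deficient library (0.0535).

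In the inhibitor libraries Trp53bp1 was at 1.83 and 2.15 RPKM with DMSO and 1.99 and 1.84 RPKM with GSK343, with overlapping groups and a log2 difference of -0.04. The DMSO values sat at the 8.76 and 11.6 percentiles of their libraries, and the control pre-plasmablast values at 30.6 and 30.5. Both groups were CD138-GFP+ cells after LPS for 4 days, but their files were made separately and no test was run between them. Plasma cells had 6.35 and 6.72 RPKM, at the 30.0 and 31.1 percentiles.

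Xrcc5 encodes the larger subunit of the Ku heterodimer. Its order was Blimp1-deficient pre-plasmablasts (11.7 and 13.2 RPKM), control pre-plasmablasts (10.7 and 11.1 RPKM), plasmablasts (8.15 and 8.43 RPKM) and activated B cells (7.61 and 7.81 RPKM), without overlap. The rise over activated B cells was 1.37-fold in control pre-plasmablasts (log2 0.45 ± 0.10, adjusted p = 0.00949) and 1.54-fold in Blimp1-deficient ones (log2 0.63 ± 0.10, adjusted p = 0.00759). Without the first activated B cell library neither passed (adjusted p = 0.0569 and 0.0602), and without the second Blimp1-deficient library the latter did not (0.0506). The neighbouring groups differed by 0.17 (Blimp1-deficient against control, adjusted p = 0.206), -0.36 (plasmablasts against pre-plasmablasts, adjusted p = 0.142, and 0.0151 with the block) and 0.09 (plasmablasts against activated B cells, adjusted p = 0.454).

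Xrcc5 rose from 6.80 and 7.45 RPKM with DMSO to 11.2 and 10.2 RPKM with GSK343, 1.44-fold higher (log2 0.53 ± 0.12, adjusted p = 0.00926). That call was lost without the first GSK343 library (0.0856) and with no filter (0.136). Beside Apex1 and Xrcc5 in that comparison, 4 of 5 erythroid markers with values summed to 11.5 and 15.2 RPKM with DMSO and 21.9 and 32.4 RPKM with GSK343. The 9 myeloid markers summed to 3.76 and 4.29 RPKM against 5.40 and 5.74 RPKM. Itgam and Tyrobp among them did not rise, with a sum of 3.11 and 3.64 RPKM with DMSO and 2.92 and 3.38 RPKM with GSK343. The 8 T cell markers summed to 51.8 and 53.6 against 49.1 and 41.5 RPKM, and Cd2 made up most of that sum. Of the 3 T cell markers tested, 2 rose and 1 fell: Lck went from 2.46 and 2.20 RPKM to 9.47 and 8.35 RPKM, Cd5 from 0.960 and 0.261 to 3.52 and 2.62, and Cd2 from 48.4 and 50.9 to 35.6 and 30.2. Cd3e was at 0 in all 4 libraries. The markers Cd14 (myeloid) and Car2 (erythroid) also passed as higher, 1 of 2 tested in each list. The part of these markers in the result was not tested. In plasma cells Xrcc5 stood at 7.67 and 8.10 RPKM, at the 35.0 and 35.9 percentiles.

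**Figure D3:**
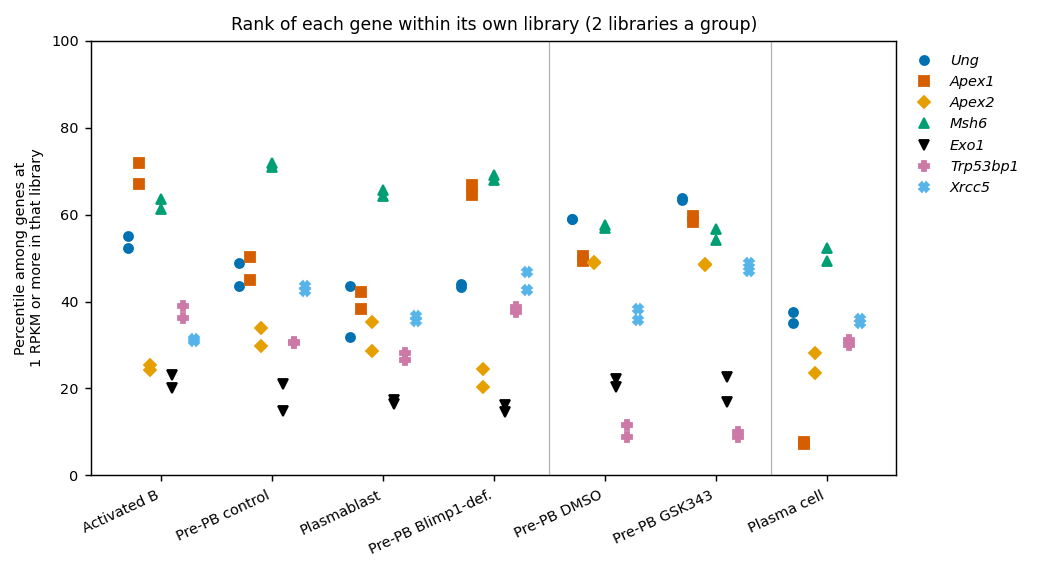
Percentile of each gene (vertical axis) among genes at 1 RPKM or more in its own library, with 2 points per group and vertical lines between the 3 kinds of file. Apex1 moves from 71.9 and 67.1 in activated B cells to 7.17 and 7.63 in plasma cells, Trp53bp1 is at 8.76 and 11.6 with DMSO, and Exo1 has no plasma cell point because it was below 1 RPKM.

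Apex1 and Trp53bp1 followed each other over the 8 GC-normalized libraries (Pearson r = 0.955 of log2 RPKM + 1), and so did Msh6 and Xrcc5 (r = 0.872). The next highest were Ung with Apex1 (r = 0.754) and Ung with Trp53bp1 (r = 0.738). Trp53bp1 and Apex2 ran opposite (r = -0.807). The 8 points are 4 groups of 2 that share library series, so these are descriptions with no test. Among 7881 genes with a mean of at least 5 RPKM, the patterns most like Apex1 were those of Zfp593 (0.997) and Glul (0.996), and those most like Trp53bp1 were Bmp2k (0.996) and Cds2 (0.996). For Xrcc5 they were Cd36 (0.992) and Bax (0.986), and for Msh6 Apoe (0.955) and Snord16 (0.945). Ung was most like Exoc1 (0.974) and Rad9 (0.973), Exo1 like Rhoh (0.974) and Actr1a (0.973), and Apex2 like Vasp (0.980) and Trappc6a (0.972).

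The promoters of the pairs with the highest r (0.955 and 0.872) are shown because their RNA is compared above. They run from 250 bases before to 50 bases after the RefSeq start on GRCm38.p6, which is not the build of the RNA files, and 5 of the 7 genes had one. Capitals mark matches on either strand to an E2F motif (TTTNNCGC), a Blimp1 motif (GNGAAAG) or an E-box (CACGTG), and the E-box was added after the sequences were seen. Apex1 is chr14:50924699-50924998 on the plus strand, Trp53bp1 chr2:121271358-121271657 on the minus strand, Msh6 chr17:87974800-87975099 on the plus strand and Xrcc5 chr1:72307171-72307470 on the plus strand.
Apex1: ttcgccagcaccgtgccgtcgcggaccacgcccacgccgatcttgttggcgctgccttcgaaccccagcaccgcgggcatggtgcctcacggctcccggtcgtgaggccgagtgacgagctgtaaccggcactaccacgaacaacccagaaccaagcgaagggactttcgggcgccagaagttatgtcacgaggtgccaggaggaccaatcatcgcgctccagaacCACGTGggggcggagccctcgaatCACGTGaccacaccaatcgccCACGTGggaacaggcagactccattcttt
Trp53bp1: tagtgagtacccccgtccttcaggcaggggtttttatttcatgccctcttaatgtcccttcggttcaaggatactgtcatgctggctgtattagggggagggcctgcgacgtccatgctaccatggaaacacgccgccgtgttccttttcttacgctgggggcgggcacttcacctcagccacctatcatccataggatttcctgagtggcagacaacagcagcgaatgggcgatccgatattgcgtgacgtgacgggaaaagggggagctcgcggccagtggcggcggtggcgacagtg
Msh6: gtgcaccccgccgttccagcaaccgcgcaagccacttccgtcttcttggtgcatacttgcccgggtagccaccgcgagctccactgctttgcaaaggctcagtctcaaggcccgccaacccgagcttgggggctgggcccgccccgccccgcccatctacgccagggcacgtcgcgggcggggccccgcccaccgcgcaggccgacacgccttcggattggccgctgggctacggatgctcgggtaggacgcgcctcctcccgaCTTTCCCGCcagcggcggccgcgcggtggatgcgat
Xrcc5: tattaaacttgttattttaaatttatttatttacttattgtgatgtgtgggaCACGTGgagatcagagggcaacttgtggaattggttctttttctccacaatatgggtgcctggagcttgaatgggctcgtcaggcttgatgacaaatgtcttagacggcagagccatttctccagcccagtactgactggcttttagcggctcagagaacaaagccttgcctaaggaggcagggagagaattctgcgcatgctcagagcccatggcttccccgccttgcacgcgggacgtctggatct
Apex1 held 3 E-boxes, whose first bases lie at -24, 1 and 22 counted from the start as base 1, and Xrcc5 held 1 at -198. Of 27025 promoters of the same length, 7.24% held at least 1 E-box, and the share that held 3 was not counted. Msh6 had an E2F match at 16 that overlaps a Blimp1 match at 15 on the other strand, where 5.27% of promoters held the first and 22.6% the second. Trp53bp1 had none of the 3, and Ung, whose promoter is not shown, had a Blimp1 match at -168. These matches say only which letters are present.

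The rest of the pathway was described with lists of other genes. In pre-plasmablasts against activated B cells, 10 of 20 tested genes of the break response fell and 0 rose, with a median of -0.41. Over all genes 28.0% were lower and 20.2% higher, with a median of -0.12. The break response count was 5 without the second activated B cell library and 6 without the first control pre-plasmablast library. Nbn, part of the complex that senses breaks, fell 2.10-fold, the kinase gene Atm fell 1.65-fold and the demethylase gene Kdm4a fell 1.57-fold. Of 21 mismatch and gap-filling genes 5 fell and 1 rose, led by the polymerase gene Pold1 (62.8 and 60.5 RPKM to 17.3 and 16.8 RPKM, 3.48-fold lower). Rfc2, a clamp loader subunit, fell 2.88-fold and Pole, a replicative polymerase, fell 1.92-fold. Of 19 base excision genes 6 fell and 4 rose, with the glycosylase gene Neil1 1.94-fold higher and Aplf 1.87-fold lower.

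End joining genes moved both ways in pre-plasmablasts. Of 11 tested, 2 rose and 3 fell. Xrcc6, which encodes the other Ku subunit, fell from 27.3 and 25.1 RPKM to 18.3 and 18.9 RPKM (log2 -0.47 ± 0.09, adjusted p = 0.00556) while Xrcc5 rose. Prkdc, the kinase that Ku recruits, fell 1.65-fold. Lig4, the ligase of this pathway, rose from 1.66 and 2.23 RPKM to 8.80 and 10.6 RPKM (log2 1.86 ± 0.14, adjusted p = 0.000111). Of 29 genes of S phase and mitosis, 14 fell and 2 rose, with Tk1 2.31-fold, Uhrf1 1.98-fold and E2f2 1.77-fold lower. The 14 became 8 without the first activated B cell library or the second control pre-plasmablast library. The 2 higher became 0 without the second activated B cell library or the first control pre-plasmablast library, and 1 without the second control pre-plasmablast library or with only those 2 groups in the fit. The end joining genes called higher numbered 1 without any 1 library of either group or with only those 2 groups. With the block, the numbers lower became 13 of 20 break response, 12 of 21 mismatch, 8 of 19 base excision, 4 of 11 end joining and 19 of 29 S phase and mitosis genes, where 41.7% of all genes were lower. Mismatch genes called higher numbered 2 with the block, where 27.9% of all genes were higher, or the other scaling, where 2430 of 10470 were.

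In plasmablasts against activated B cells, where 33.9% of all genes were lower and 21.3% higher, lower and higher were 11 and 1 of 20 break response genes, 8 and 1 of 21 mismatch genes, 7 and 4 of 19 base excision genes, 3 and 1 of 11 end joining genes, and 13 and 2 of 29 S phase and mitosis genes. Lig4 rose 3.72-fold and Neil1 2.25-fold. Pold1 fell 3.76-fold, Rfc2 2.84-fold, Rpa1 (single-strand binding) 2.38-fold, Nbn 2.34-fold, Atm 2.23-fold and Prkdc 2.02-fold. Xrcc6 fell 1.57-fold, Parp2 1.99-fold, Mutyh 1.91-fold, Fam35a (a shieldin subunit) 1.82-fold, Tk1 2.46-fold, Uhrf1 2.30-fold and the helicase gene Mcm3 2.17-fold. Under the other scaling 7 break response and 4 mismatch genes were lower, and 3 end joining, 2 mismatch and 5 S phase and mitosis genes were higher. All genes moved as well, from 3547 lower and 2228 higher of 10473 to 2626 lower and 2772 higher of 10470. With the block 13 mismatch genes were lower, and 3 end joining, 2 mismatch and 6 S phase and mitosis genes were higher, where 47.4% of all genes were lower and 28.0% higher. The 1 break response gene called higher was lost when any 1 library was left out, with no filter and with only the 2 groups in the fit. Without the second activated B cell library or the first plasmablast library 5 mismatch genes were lower. The S phase and mitosis genes called higher numbered 1 without any 1 library of either group or with only the 2 groups, and the end joining genes called higher numbered 2 without the second plasmablast library.

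Against pre-plasmablasts, plasmablasts showed 0 called genes in each of these 5 lists in limma without the block, where 2.34% of all genes were called. With the block 1 base excision gene was higher and 3 were lower, 1 mismatch gene and 1 break response gene were lower, and 2 S phase and mitosis genes were higher and 3 lower, where 7.00% of all genes were higher and 13.3% lower. No end joining gene passed with it, and under the other scaling 1 S phase and mitosis gene was higher, where 103 of 10470 genes were. At an unadjusted p below 0.05 and without the block there were 3 of 19 base excision, 0 of 21 mismatch and 1 of 20 break response genes. There were also 0 of 11 end joining and 2 of 29 S phase and mitosis genes, where 16.3% of all genes reached that threshold.

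In Blimp1-deficient against control pre-plasmablasts, 8 of 20 break response genes rose and 1 fell, where 24.4% of all genes were higher and 16.1% lower. The median of the 20 was 0.10, against 0.12 over all genes. Under the other scaling 5 were higher, and without 1 library of these 2 groups 3 to 5 were (4 without the first and 3 without the second Blimp1-deficient library, 4 without the first and 5 without the second control library), with 0 lower each time. Among the 8, Atm rose 1.83-fold, Nbn 1.54-fold and Kdm4a 1.47-fold. Of 21 mismatch genes 6 rose and 3 fell, among them Pold1 (2.10-fold higher), the polymerase gene Polk (1.66-fold higher) and Rfc2 (1.61-fold higher). Of 19 base excision genes 3 rose and 2 fell, with the flap nuclease gene Fen1 2.17-fold lower, the glycosylase gene Ogg1 1.73-fold lower and Aplf 1.52-fold higher. Of 11 end joining genes Prkdc rose 1.63-fold, and Lig4 and Polm fell 1.75-fold and 1.30-fold. The S phase and mitosis list had 3 higher and 8 lower of 29, with Cdt1 1.79-fold lower, Cdc6 1.63-fold lower and E2f2 1.68-fold higher.

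The other counts of this comparison moved too. Under the other scaling 3 mismatch and 0 base excision genes were higher, where 1853 of 10470 genes were, against 2553 of 10473 without it. With only the 2 groups in the fit, 0 base excision genes were higher, 0 break response genes lower and 1 end joining gene lower. Mismatch genes called higher numbered 2 without the first Blimp1-deficient library and 3 without the second or without the first control library. Base excision genes called higher numbered 0 without the first Blimp1-deficient or the second control library, and 1 without the first plasmablast library. End joining genes called lower numbered 1 without the second Blimp1-deficient library or either control library. S phase and mitosis genes called lower numbered 4 without the first control library and 5 without the second Blimp1-deficient library. With the block, higher and lower were 9 and 3 break response, 11 and 5 mismatch, 6 and 3 base excision, 3 and 3 end joining, and 5 and 13 S phase and mitosis genes, where 40.4% of all genes were higher and 24.9% lower.

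Blimp1-deficient pre-plasmablasts against activated B cells had 4 of 20 break response genes lower (H2afx 1.68-fold, Bard1 1.61-fold and Nbn 1.36-fold lower among them) and 0 higher, where 7.60% of all genes were lower and 10.4% higher. Of 21 mismatch genes 4 fell (with Rfc2 1.79-fold, Pold1 1.66-fold and Pole 1.52-fold lower), and of 19 base excision genes 5 fell (with Parp1 1.801-fold and Lig1 1.57-fold lower) and Neil1 rose 2.29-fold. Lig4 rose 2.08-fold, the only called gene of 11 in end joining. The S phase and mitosis list had 15 of 29 lower and 0 higher, with Bub1 1.82-fold, Uhrf1 1.802-fold and Plk1 1.799-fold lower. That count was 6 without the first activated B cell library, 7 without the first and 8 without the second Blimp1-deficient library, and 7 with only the 2 groups in the fit. Break response genes called lower numbered 0 without the first activated B cell or the second Blimp1-deficient library, 1 without the second activated B cell library or with only the 2 groups, and 2 without the first Blimp1-deficient library or either plasmablast library. Mismatch genes called lower numbered 2 and 1 without the first and the second activated B cell library. Base excision genes called lower numbered 1 to 3 without any 1 of the activated B cell, Blimp1-deficient or control libraries, and 3 under the other scaling or with only the 2 groups. Fewer of all genes were also called lower whenever 1 library was left out. With only the 2 groups 476 were lower, against 796 of 10473 in the shared fit and 790 of 10470 under the other scaling. With the block, lower and higher were 9 and 0 break response, 10 and 2 mismatch, 6 and 3 base excision, 3 and 1 end joining, and 23 and 0 S phase and mitosis genes, where 20.6% of all genes were lower and 22.1% higher.

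With GSK343, 0 of 20 mismatch and 0 of 20 break response genes passed in limma, where 12.7% of all genes were called higher and 5.86% lower. An unadjusted p below 0.05 was reached by 1 and 2 of them, where 31.4% of all genes reached it. Xrcc1, the scaffold of base excision repair, fell from 58.5 and 65.4 RPKM to 28.4 and 26.2 RPKM (log2 -1.15 ± 0.09, adjusted p = 1.56e-05), the only called gene of 19 in its list. Of 9 end joining genes tested, Polm and Tdp1 fell 1.42-fold and 1.26-fold. Of 29 genes of S phase and mitosis, 4 fell and 1 rose, with Ccnb1 1.49-fold, Cdc45 1.32-fold and E2f2 1.30-fold lower. The 4 became 8 without the first DMSO library, 2 without the second, 1 without the first GSK343 library and 0 without the second, and the 1 higher was lost without either GSK343 library, under the other scaling and with no mean-variance trend. End joining genes called lower numbered 1 without the second DMSO or the first GSK343 library or with no trend, and 0 without the second GSK343 library. Mismatch genes called lower numbered 2 without either DMSO library and 1 under the other scaling. In base excision 3 were lower and 1 higher without the first DMSO library, and 2 lower under the other scaling. Without either GSK343 library fewer of all genes were also called higher and lower. Under the other scaling 855 of 9468 genes were lower, against 555 of 9479 without it. With no filter no gene of any list passed, and none of the whole table did.

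**Figure D4:**
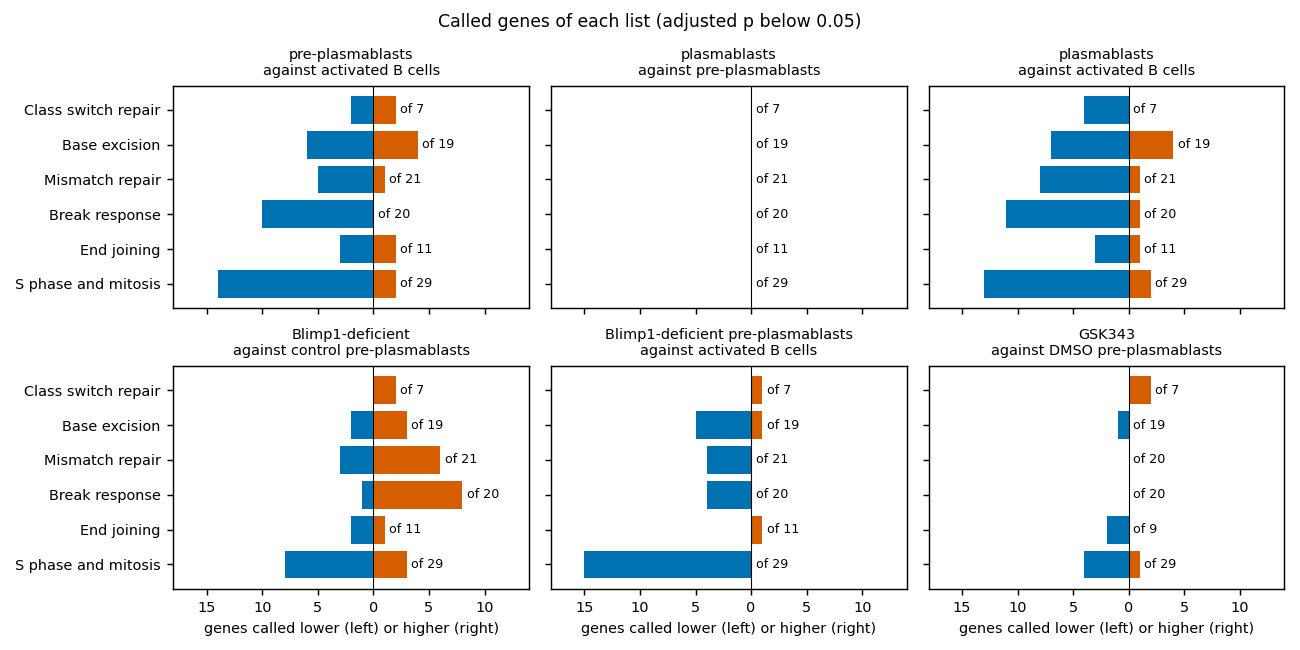
Number of genes called lower (blue, left) and higher (orange, right) at limma adjusted p below 0.05 in the 7 class switch repair genes and 5 lists of other genes, for 6 comparisons, with the number tested beside each bar. In pre-plasmablasts against activated B cells 10 of 20 break response genes were lower, where 28.0% of all genes were, and 5 without the second activated B cell library, and in Blimp1-deficient against control pre-plasmablasts 8 of 20 were higher, where 24.4% of all genes were, and 3 without the second Blimp1-deficient library.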

How the data were processed

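RNA sequencing libraries of 7 groups of 2 were used, and 24 further samples of the series (38 in all) are not analysed here. Strand-specific libraries of polyadenylated RNA were read at 50 nucleotides, per the labels' protocols. HTSeq 0.5.3, TopHat 1.4.1, SICER, DESeq 1.8.3 and the genome build mm9 appear in the submitters' processing notes without a role. Which annotation was counted, and whether by strand, is not given in the sources used here. The authors deposited RPKM values, GC-normalized (per the file names) for 8 libraries and not for the other 6, so tests stayed within 1 kind of file. Entries with a repeated name were left out (126 of 11567 in the GC-normalized files, 375 of 21025 in the inhibitor files and 420 of 21025 in the plasma cell files). In the plasma cell files 5 read-counter summary names were dropped so that names and values line up: the Pearson correlation with the first DMSO library was 0.901 over 20254 genes, and 0.325 over 20249 genes as deposited.

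RPKM is not a count, so limma 3.58.1 (R 4.3.3) was run on log2(RPKM + 1) keeping genes that reached 1 RPKM in 2 or more libraries, with a mean-variance trend, two-sided, and Benjamini-Hochberg adjustment over all genes tested. Fold changes on that scale understate those of low genes. The 4 GC-normalized groups shared 1 fit and the inhibitor groups had their own. The code was tested on simulated data. Groups followed GEO's labels. Deviations from group means correlated at 0.666 to 0.781 between libraries of the same number series in the titles, in all 6 pairs of groups. The series therefore entered as a replicate block among the alternatives. The main fit, and the calls in the figures, had no block and so left this pairing out. The alternatives were a pseudocount of 0.1, no filter, a filter at 5 RPKM, median-of-ratios scaling, no trend, fits of 2 groups, each library left out, the replicate block, and plasma cell names as deposited.

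The members, gene lists and tests were chosen with earlier results of these data known. Named genes were all members, up to 3 called genes of largest change per list and comparison, and the 2 genes most correlated with each member; others are said to be chosen later. Some genes that this rule names are not reported here.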

Additional observations from a re-analysis of the deposited data

How the results depend on the processing

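Over 581 recomputed log2 fold changes of the 7 genes, 529 kept their direction and side of the threshold, 23 lost the call, 16 gained one and 13 changed sign, all 13 without a call. With the replicate block 3 genes were called higher and 4 lower in pre-plasmablasts against activated B cells, and the genes called lower numbered 4 in plasmablasts against pre-plasmablasts. In plasmablasts against activated B cells 1 gene was called higher with it, and in Blimp1-deficient against control pre-plasmablasts 1 lower. In Blimp1-deficient cells against activated B cells it called 2 higher and 2 lower. With only the 2 groups in the fit, 1 gene was called higher in pre-plasmablasts against activated B cells. Median-of-ratios scaling called 1 lower in Blimp1-deficient against control pre-plasmablasts. With no filter 0 were called higher with GSK343 in limma, where no gene of the whole table passed. The block changed no other member count. Whenever 1 library was left out, fewer of all genes were called higher and lower in every comparison of the GC-normalized groups. With GSK343 that held without either GSK343 library.

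Leaving out 1 library at a time gave 0 to 2 higher and 1 to 3 lower in pre-plasmablasts against activated B cells, and 3 to 4 lower in plasmablasts against activated B cells. It gave 1 to 2 higher in Blimp1-deficient against control pre-plasmablasts, 0 to 1 higher in Blimp1-deficient cells against activated B cells, and 0 to 2 higher with GSK343.

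Some values without a call changed sign. In plasmablasts against pre-plasmablasts Apex2 was 0.045 under the other scaling. Leaving out 1 library at a time gave, in that comparison, Apex2 from -0.17 (without the first plasmablast library) to 0.13 (without the second) and Exo1 from -0.30 to 0.071 (without the second or first control pre-plasmablast library). In plasmablasts against activated B cells it gave Msh6 from -0.047 to 0.065 (without the first or second activated B cell library). In Blimp1-deficient against control pre-plasmablasts it gave Ung from -0.13 to 0.10 and Exo1 from -0.29 to 0.073, each set by a control library. In Blimp1-deficient cells against activated B cells Trp53bp1 ran from -0.058 to 0.090, set by the activated B cell libraries. With GSK343, Exo1 ran from -0.25 to 0.078 (without the first or second GSK343 library) and Trp53bp1 from -0.11 to 0.043 (without the first or second DMSO library). The causes were not tested. Depth is unknown from RPKM, so no counting error can be given for Exo1 or Apex1 in plasma cells, and groups of 2 libraries limit every test.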

Other observations

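Other repair genes set the plasma cells apart from the cultured libraries in level, and they are named after their values were seen. Neil1, a glycosylase gene for oxidised bases, was at 82.3 and 91.4 RPKM in plasma cells and at 9.53 to 42.2 RPKM in the 12 cultured libraries. Pold1 was at 7.99 and 9.01 RPKM in plasma cells and at 15.2 to 62.8 RPKM in the cultured libraries. Tk1 was at 27.8 and 30.4 RPKM in plasma cells, inside the cultured range of 13.6 to 37.3 RPKM. These files were made separately and no test was run between them.

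Atm and Prkdc stood low in the inhibitor libraries, as Trp53bp1 did, and are also named after their values were seen. Atm was at 1.795 and 1.92 RPKM with DMSO and at 7.96 and 9.84 RPKM in control pre-plasmablasts. Prkdc was at 0.915 and 0.639 RPKM with DMSO and at 3.13 and 3.21 RPKM in control pre-plasmablasts. Xrcc6 went the other way, with 43.1 and 45.8 RPKM with DMSO and 18.3 and 18.9 RPKM in control pre-plasmablasts. The cause of these differences between kinds of file was not tested.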
